A study of Mus musculus with 12 samples.

Results

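The 39 genes described here are listed as immediate early and activation-induced genes: transcription factors, phosphatases, mRNA decay factors and surface or signalling regulators. Most, not all, are known to be switched on within minutes to hours of a stimulus. The genes were listed by symbol, with earlier results of these data known, and all 39 were found among the 45703 genes of both deposited tables. The series holds 12 RNA libraries of mouse CD4+ T cells on the C57BL/6 background, 3 in each of 4 groups. These were Th17 cells with the genotype Slc2a3-fl/fl Cd4-cre (GLUT3-deficient), wild-type Th17 cells, Th1 cells with the genotype Slc2a3-fl/fl Cd4-cre, and wild-type Th1 cells. Slc2a3 encodes the glucose transporter GLUT3. Cre under Cd4 control deletes the floxed gene in T cells already during their development in the thymus, so the deficient cells lacked it before they were activated. The labels give the controls as wild type and name no floxed or Cre allele in them. In all groups, naive cells had received 3 days of CD3 and CD28 stimulation with cytokines that favour the Th17 or the Th1 fate.

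Signals from the T cell receptor and CD28 run through the MAP kinases, calcium and NF-kB to factors that are already present in the resting cell, which then start transcription of immediate early genes without new protein synthesis. Many of these genes encode transcription factors (the FOS and JUN proteins of AP-1, EGR and NR4A), while others encode brakes on the same signals: the dual-specificity phosphatases inactivate MAP kinases, ZFP36 and BTG proteins hasten mRNA decay, and IkB-alpha and A20 restrain NF-kB. Their transcripts are short-lived, and after a single stimulus most fall again within hours. The libraries were made after days of culture, so these are levels late in activation, not the initial burst.

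Levels are TPM, reads per exon length scaled to the same total in each library, and rest on 16596283 to 28496606 reads per library. At these depths 3 reads on 1 kb of exon equal 0.19 to 0.437 TPM, a floor for counting error alone. Slc2a3 itself (chromosome 6, 122727809 to 122802363, GRCm38.p6) stood at 5.14, 18.7 and 3.30 TPM in GLUT3-deficient Th17 libraries, against 379, 109 and 44.6 TPM in wild-type Th17 libraries. Among Th1 libraries the values were 6.79, 4.49 and 7.97 TPM in GLUT3-deficient libraries, against 398, 95.6 and 64.7 TPM in wild-type libraries, so the genotypes did not overlap in either lineage. GLUT3-deficient Th17 replicate 2, with the highest Slc2a3 of the deficient libraries, stood apart from its group. From the remaining libraries of its group it differed by a median of 0.63 on the log2 scale (absolute), whereas this measure was 0.17 to 0.43 in the other 11. Of the 37 members that reached 1 TPM in 3 or more of the 12 libraries, 25 were highest within their group in this library, and so were 58.5% of all genes. Wild-type replicate 1 likewise held the highest group value for 25 of the 37 members in Th17 cells (34.3% of all genes) and for 28 of 37 in Th1 cells (37.7% of all genes). Summed over the 9 markers fixed for T cells (among them Cd3e, Cd4 and Trac), levels were 10072 to 13166 TPM in GLUT3-deficient and 9322 to 11288 TPM in wild-type Th17 libraries, and 11546 to 12534 TPM in GLUT3-deficient and 8848 to 9881 TPM in wild-type Th1 libraries. At a limma adjusted p below 0.05, none of the 9 differed in Th17 cells. In Th1 cells 6 were higher in GLUT3-deficient libraries and none lower, where 17.6% of all genes were higher and 13.7% lower. Cd4 stood at 335 TPM in GLUT3-deficient Th17 replicate 2 and at 60.7 to 88.8 TPM in the other Th17 libraries. The labels do not say whether replicates came from separate animals or cultures, so p-values reflect the spread among the libraries alone, part of which may be technical.

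Together the members made up more of the RNA in GLUT3-deficient cells. Their summed level was 5883, 6102 and 5476 TPM in GLUT3-deficient Th17 libraries, against 3674, 3266 and 3097 TPM in wild-type Th17 libraries. In Th1 cells it was 6733, 5876 and 6777 TPM in GLUT3-deficient libraries, against 3836, 2938 and 2885 TPM in wild-type libraries. Every deficient library lay above every wild-type library of its lineage, and 4 abundant members (drawn from Junb, Dusp2, Nfkbia, Rgs1 and Ier2) made up 53.5% to 70.5% of the sum. In bulk RNA, a larger share of cells with a transcript and more of it per cell cannot be told apart.

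In Th17 cells, 8 of 36 tested members were higher in GLUT3-deficient than in wild-type libraries and none was lower, at a limma adjusted p below 0.05. Over all 13823 genes tested, 7.3% passed in either direction, 4.6% higher and 2.7% lower. The 8 are Fos, Fosl1, Egr1, Dusp1, Dusp2, Zfp36, Btg2 and Cd69. In Th1 cells, 19 of 37 tested members were higher and 1, Rgs2, was lower, where 31.3% of the 13487 genes tested passed, 17.6% higher and 13.7% lower. All 8 members called in Th17 cells were also called higher in Th1 cells. The other 11 were Junb, Atf3, Egr2, Nr4a1, Nr4a2, Nr4a3, Dusp4, Dusp5, Dusp6, Ier2 and Ier3. The median log2 fold change of the tested members was 0.83 in Th17 cells, where the median of all genes was 0.04, and 0.67 in Th1 cells, where that of all genes was 0.03. Fold changes are GLUT3-deficient over wild type of log2(TPM + 1), a scale that shrinks the change of weakly expressed genes. Every deficient library exceeded every wild-type library for 18 of the 36 tested members in Th17 cells (18.5% of all genes) and for 21 of 37 in Th1 cells (26.3% of all genes). The fit of the Th17 comparison with the replicate number as a block, which the libraries' deviations pair in this comparison, called 11 members, adding Jun, Dusp6 and Ier3 (adjusted p = 0.0386, 0.0372 and 0.0234).

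**Figure D1:**
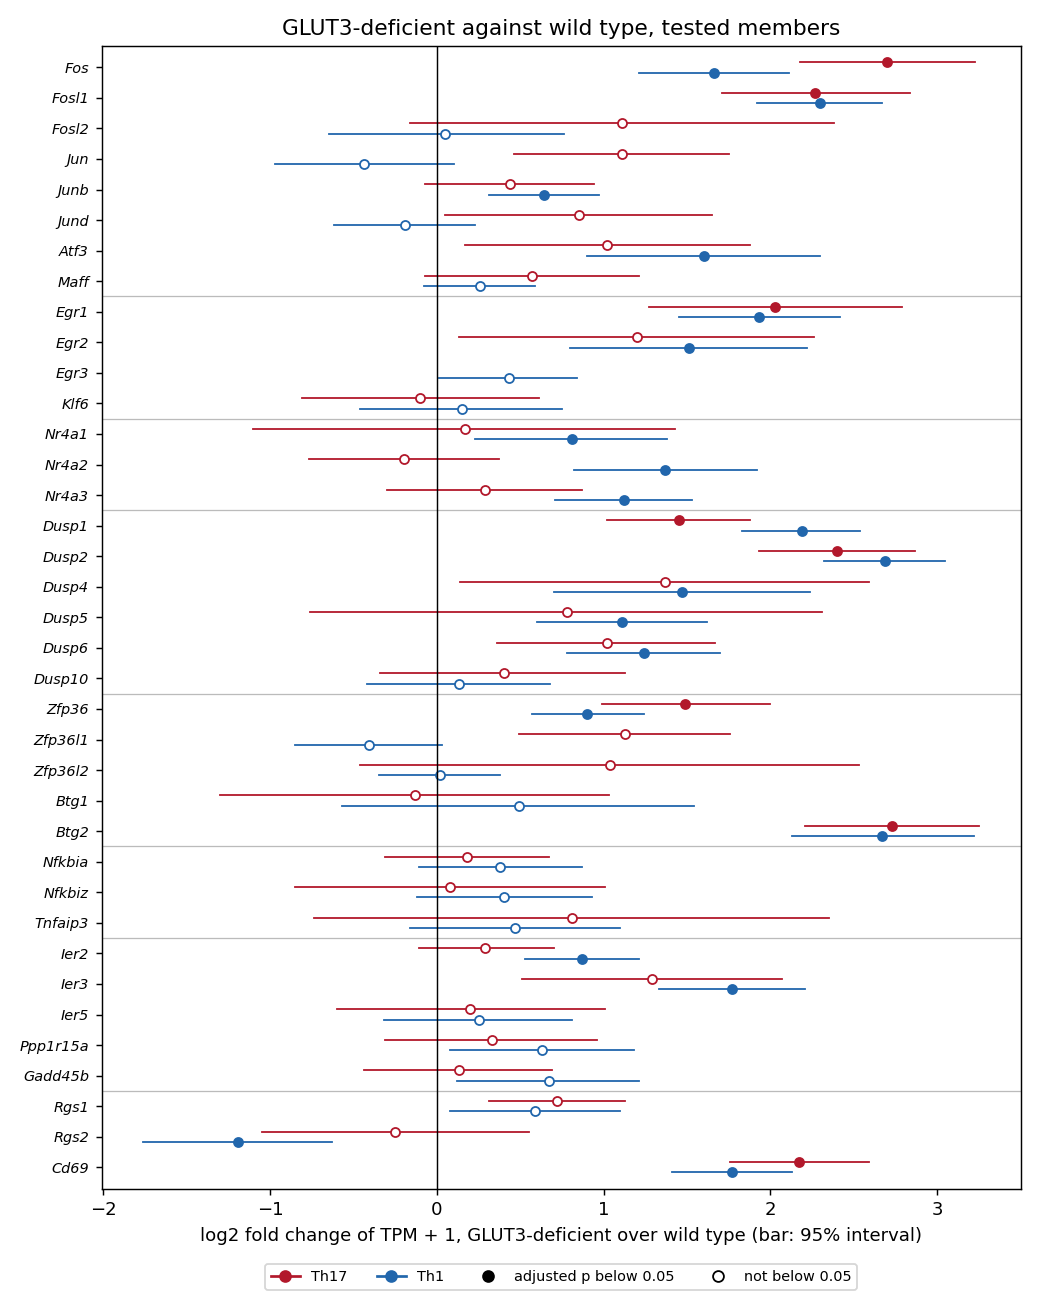
Log2 fold change of TPM + 1, GLUT3-deficient over wild type, for each member tested in Th17 (red) and Th1 cells (blue), with 95% intervals from limma over 3 libraries per group; filled points have an adjusted p below 0.05. Filled points lie right of 0 for 8 members in Th17 and 19 in Th1 cells, and left of 0 for Rgs2 in Th1 cells.

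**Figure D2:**
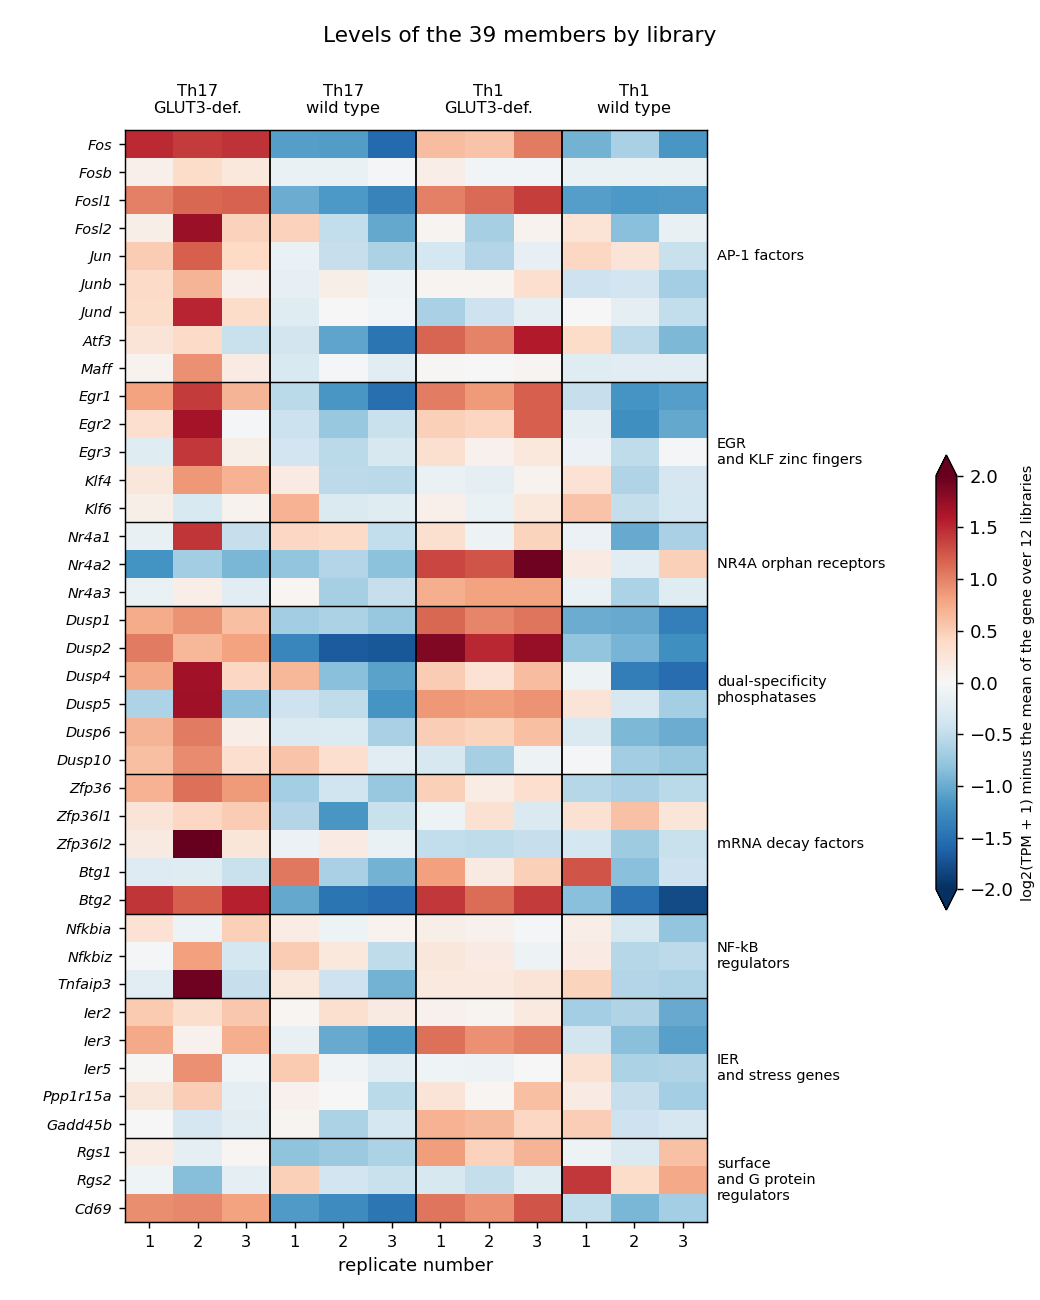
Levels of the 39 members (rows, grouped by role) in the 12 libraries (columns, 3 replicates per group), as log2(TPM + 1) minus the mean of the gene over all libraries; the colour scale ends at 2 and -2. Fos, Fosl1, Egr1, Dusp1, Dusp2, Zfp36, Btg2 and Cd69 are above their mean in the GLUT3-deficient and below it in the wild-type libraries of both lineages, and GLUT3-deficient Th17 replicate 2 is high for many other members.

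Among the AP-1 factors, which bind DNA as dimers of FOS, JUN and ATF proteins, Fos was called higher in GLUT3-deficient cells of both lineages. Fos stood at 72.8, 68.3 and 70.4 TPM in GLUT3-deficient Th17 libraries, against 11.2, 11.1 and 7.94 TPM in wild-type Th17 libraries. In Th1 cells, values were 39.3, 37.9 and 52.8 TPM in GLUT3-deficient libraries, against 12.6, 15.8 and 10.7 TPM in wild-type libraries. Deficient and wild-type libraries did not overlap in either lineage. The log2 fold change was 2.70 ± 0.22 in Th17 (SE, adjusted p = 0.00155) and 1.66 ± 0.20 in Th1 cells (adjusted p = 0.000524). The test of the difference between these 2 effects gave 1.04 ± 0.29 with an adjusted p of 0.217.

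Fosl1, which encodes the FOS relative FRA-1, was low in wild-type cells. It stood at 10.7, 11.9 and 12.1 TPM in GLUT3-deficient and at 1.92, 1.62 and 1.29 TPM in wild-type Th17 libraries. It stood at 10.7, 11.7 and 14.2 TPM in GLUT3-deficient and at 1.71, 1.63 and 1.64 TPM in wild-type Th1 libraries. The lowest deficient library was far above the highest wild-type library in both lineages, with log2 fold changes of 2.27 ± 0.24 (SE, adjusted p = 0.00417) in Th17 and 2.30 ± 0.16 (adjusted p = 6.47e-05) in Th1 cells. Fosb, another FOS relative, held 0 to 16 reads in any library and was not tested.

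Junb, the most abundant AP-1 transcript here, stood at 1164, 1442 and 962 TPM in GLUT3-deficient and at 800, 975 and 836 TPM in wild-type Th17 libraries. The Th17 genotypes overlapped and the test did not pass (log2 fold change 0.44 ± 0.21, adjusted p = 0.252). In Th1 cells Junb stood at 931, 932 and 1135 TPM in GLUT3-deficient and at 672, 688 and 561 TPM in wild-type libraries, without overlap (0.64 ± 0.14, adjusted p = 0.00979). Atf3, a stress-induced factor that dimerizes with JUN proteins, stood at 40.9, 44.7 and 24.9 TPM in GLUT3-deficient and at 26.3, 16.0 and 11.7 TPM in wild-type Th17 libraries. These groups overlapped, and the difference did not pass (1.02 ± 0.36, adjusted p = 0.139). In Th1 cells Atf3 stood at 77.7, 69.2 and 104 TPM in GLUT3-deficient and at 44.5, 23.4 and 17.9 TPM in wild-type libraries, without overlap (1.60 ± 0.31, adjusted p = 0.00488).

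Jun, the founding member of its family, stood at 88.5, 143 and 81.7 TPM in GLUT3-deficient and at 56.5, 44.5 and 39.6 TPM in wild-type Th17 libraries. The groups did not overlap, and the log2 fold change of 1.11 ± 0.27 had an adjusted p of 0.0554. Without GLUT3-deficient Th17 replicate 2, the library with 143 TPM, it was 0.86 ± 0.21 with an adjusted p of 0.0295. In Th1 cells Jun stood at 48.1, 41.0 and 55.2 TPM in GLUT3-deficient and at 82.4, 74.0 and 45.0 TPM in wild-type libraries. Here the groups overlapped and the fold change was -0.44 ± 0.24 (adjusted p = 0.189). Without wild-type Th1 replicate 3, the library with 45.0 TPM, it was -0.70 ± 0.17 with an adjusted p of 0.0212. Jun passed with no other single Th1 library left out. Jund, Fosl2 and Maff did not pass in either lineage, with group means of 81.0, 12.5 and 1.95 TPM in GLUT3-deficient and 41.2, 5.07 and 0.931 TPM in wild-type Th17 libraries. Their means in Th1 cells were 32.9, 5.35 and 1.23 TPM in GLUT3-deficient and 37.8, 5.26 and 0.87 TPM in wild-type libraries. In Th17 cells, the deficient mean of Jund is raised by replicate 2, at 129 TPM, while replicates 1 and 3 stood at 57.0 and 57.1 TPM. Each of these lay above the wild-type libraries, at 37.0, 44.1 and 42.4 TPM (0.85 ± 0.34, limma adjusted p = 0.177).

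The EGR zinc fingers are targets of MAP kinase and calcium signals and bind GC-rich promoters. Egr1 stood at 79.8, 121 and 72.5 TPM in GLUT3-deficient and at 30.8, 19.5 and 15.2 TPM in wild-type Th17 libraries. It stood at 93.0, 82.0 and 105 TPM in GLUT3-deficient and at 32.6, 19.3 and 20.5 TPM in wild-type Th1 libraries. The groups lay apart in both lineages (2.03 ± 0.32, adjusted p = 0.0152 in Th17 cells; 1.93 ± 0.21, adjusted p = 0.000384 in Th1 cells). The Th17 call of Egr1 was lost without GLUT3-deficient replicate 1, wild-type replicate 2 or wild-type replicate 3 (adjusted p = 0.0758, 0.0856 and 0.0825), with log2 fold changes of 2.11, 1.98 and 1.81.

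Egr2, which restrains T cell activation and is linked to anergy, stood at 6.56, 18.0 and 4.87 TPM in GLUT3-deficient and at 3.46, 2.56 and 3.39 TPM in wild-type Th17 libraries. These groups lay apart, but the test did not pass (1.20 ± 0.45, adjusted p = 0.159). In Th1 cells Egr2 stood at 7.34, 7.10 and 12.8 TPM in GLUT3-deficient and at 4.32, 1.57 and 1.95 TPM in wild-type libraries, and it passed (1.51 ± 0.31, adjusted p = 0.00652). Egr3, Klf4 and Klf6 were not called. Egr3 did not reach 1 TPM in 3 of the Th17 libraries and Klf4 in neither lineage, with highest values of 4.44 and 1.91 TPM in GLUT3-deficient Th17 replicate 2. Klf6, a zinc finger gene, was well expressed at 98.5 to 224 TPM in all 12 libraries, with log2 fold changes of -0.10 ± 0.30 in Th17 and 0.15 ± 0.27 in Th1 cells. Without wild-type Th1 replicate 1 it passed in Th1 cells (0.48 ± 0.15, adjusted p = 0.0351).

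The NR4A orphan receptors, which act without a known ligand, are induced by T cell receptor signals and are linked to exhaustion and to regulatory T cells. All 3 were called higher in GLUT3-deficient Th1 cells and none was called in Th17 cells. Nr4a2 stood at 17.1, 16.1 and 26.5 TPM in GLUT3-deficient and at 7.01, 5.19 and 8.96 TPM in wild-type Th1 libraries (1.37 ± 0.24, adjusted p = 0.00324). In Th17 cells Nr4a2 stood at 2.13, 3.41 and 2.81 TPM in GLUT3-deficient and at 3.14, 3.77 and 3.04 TPM in wild-type libraries, which overlapped (-0.20 ± 0.24, adjusted p = 0.643). The Th1 genotypes lay apart. For the difference between the effects, the estimate was -1.57 ± 0.36 (Th17 minus Th1), with an unadjusted p of 0.000919 and an adjusted p of 0.0952. It passed without GLUT3-deficient Th17 replicate 2 (-1.69 ± 0.33, adjusted p = 0.037), but with no other single library left out.

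Nr4a3 stood at 3.58, 3.85 and 3.83 TPM in GLUT3-deficient and at 1.52, 0.786 and 1.34 TPM in wild-type Th1 libraries (1.12 ± 0.18, adjusted p = 0.00203). Its Th17 values were 1.53, 2.03 and 1.41 TPM in GLUT3-deficient and 1.85, 0.762 and 1.01 TPM in wild-type libraries. The Th1 genotypes lay apart and the Th17 genotypes overlapped (0.29 ± 0.25, adjusted p = 0.508). Nr4a1, also known as Nur77 and used as a reporter of receptor signal strength, stood at 11.4, 8.24 and 12.5 TPM in GLUT3-deficient and at 8.16, 3.94 and 5.35 TPM in wild-type Th1 libraries. The lowest deficient value was just above the highest wild-type value (0.81 ± 0.25, adjusted p = 0.0393). This call was lost without GLUT3-deficient Th1 replicate 1 or 3 (adjusted p = 0.12 and 0.137) and without wild-type Th1 replicate 2 or 3 (adjusted p = 0.109 and 0.0859). In Th17 cells Nr4a1 stood at 7.93, 25.8 and 6.21 TPM in GLUT3-deficient and at 12.3, 11.9 and 6.07 TPM in wild-type libraries, where only GLUT3-deficient replicate 2 exceeded the wild-type range (0.17 ± 0.54, adjusted p = 0.877).

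**Figure D3:**
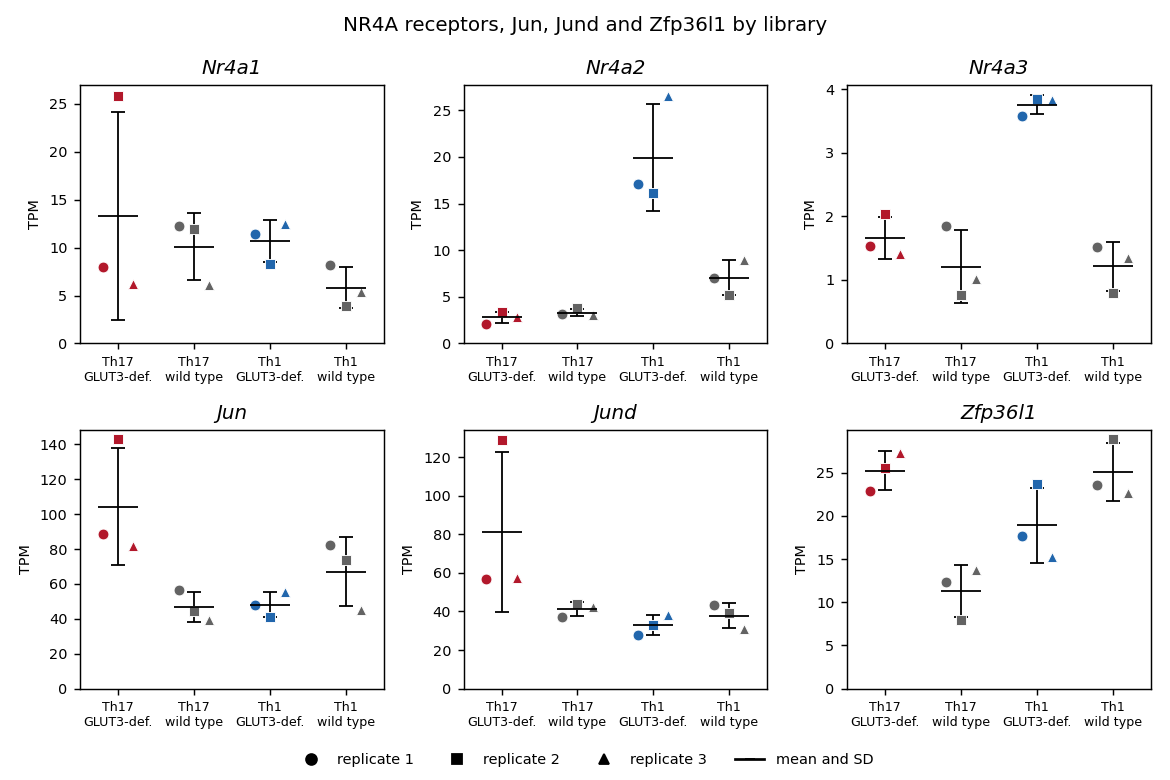
TPM of Nr4a1, Nr4a2, Nr4a3, Jun, Jund and Zfp36l1 in each of the 12 libraries, by group, with the mean and SD of 3 libraries. The NR4A genes are higher in GLUT3-deficient than in wild-type Th1 libraries and overlap between the genotypes in Th17 cells; for Jun, Jund and Nr4a1 the GLUT3-deficient Th17 mean is raised by replicate 2, at 143, 129 and 25.8 TPM.

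The dual-specificity phosphatases remove phosphates from MAP kinases. Dusp2, whose nuclear product inactivates ERK and p38 and which is an activation gene of lymphocytes, was the most abundant of them and was called higher in both lineages. Dusp2 stood at 984, 754 and 836 TPM in GLUT3-deficient and at 192, 149 and 146 TPM in wild-type Th17 libraries. Its Th1 values were 1722, 1348 and 1598 TPM in GLUT3-deficient and 275, 249 and 202 TPM in wild-type libraries. No library overlapped between the genotypes of a lineage, and the log2 fold change was 2.40 ± 0.20 (SE, adjusted p = 0.00161) in Th17 and 2.69 ± 0.16 (adjusted p = 3.23e-05) in Th1 cells.

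Dusp1 stood at 113, 125 and 102 TPM in GLUT3-deficient and at 40.8, 42.7 and 39.2 TPM in wild-type Th17 libraries. The Th1 values were 149, 133 and 142 TPM in GLUT3-deficient and 33.2, 32.9 and 25.3 TPM in wild-type libraries. Both lineages showed no overlap (1.45 ± 0.18, adjusted p = 0.00734 in Th17 cells; 2.19 ± 0.16, adjusted p = 6.25e-05 in Th1 cells). The effect was larger in Th1 cells by 0.74 on the log2 scale, which did not pass (-0.74 ± 0.22 for Th17 minus Th1, adjusted p = 0.279). The Th17 call was lost without GLUT3-deficient replicate 1, wild-type replicate 2 or wild-type replicate 3 (adjusted p = 0.0713, 0.0512 and 0.0571), at log2 fold changes of 1.45, 1.48 and 1.42.

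Dusp4, Dusp5 and Dusp6, which are known feedback inhibitors of ERK signalling, were called in Th1 cells but not in Th17 cells. Dusp6 stood at 64.8, 63.1 and 70.5 TPM in GLUT3-deficient and at 37.6, 24.3 and 22.5 TPM in wild-type Th1 libraries (1.24 ± 0.20, adjusted p = 0.00214). In Th17 cells Dusp6 stood at 74.2, 95.3 and 50.5 TPM in GLUT3-deficient and at 37.6, 37.9 and 28.9 TPM in wild-type libraries, without overlap (1.02 ± 0.28, adjusted p = 0.0732). The Dusp6 genotypes were thus apart in both lineages.

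Dusp5 stood at 77.8, 76.1 and 80.0 TPM in GLUT3-deficient and at 50.6, 33.7 and 26.1 TPM in wild-type Th1 libraries, apart from each other (1.11 ± 0.22, adjusted p = 0.00586). The Th17 values were 27.4, 139 and 23.4 TPM in GLUT3-deficient and 31.6, 29.6 and 18.2 TPM in wild-type libraries, so that replicate 2 alone lay above the wild-type range (0.78 ± 0.65, adjusted p = 0.495). Dusp4 stood at 85.9, 74.0 and 92.7 TPM in GLUT3-deficient and at 56.4, 22.5 and 20.3 TPM in wild-type Th1 libraries (1.47 ± 0.34, adjusted p = 0.0111; adjusted p = 0.0518 without GLUT3-deficient Th1 replicate 3). In Th17 cells Dusp4 stood at 103, 196 and 80.4 TPM in GLUT3-deficient and at 96.2, 33.4 and 28.1 TPM in wild-type libraries, which overlapped through wild-type replicate 1 (1.37 ± 0.52, adjusted p = 0.162). Dusp10, which acts on p38 and JNK, stood at 3.93 to 15.1 TPM in all 12 libraries and did not pass in either lineage.

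Among the factors that promote mRNA decay, Btg2, an antiproliferative gene whose product recruits the deadenylase complex, was called higher in both lineages. It stood at 182, 155 and 199 TPM in GLUT3-deficient and at 32.5, 23.6 and 22.6 TPM in wild-type Th17 libraries. In Th1 cells Btg2 stood at 180, 146 and 177 TPM in GLUT3-deficient and at 37.1, 23.4 and 18.6 TPM in wild-type libraries. The genotypes lay wide apart in both lineages (2.73 ± 0.22, adjusted p = 0.00154 in Th17 cells; 2.67 ± 0.24, adjusted p = 0.000159 in Th1 cells). The difference between the effects was 0.06, with a 95% interval of -0.68 to 0.80. Its relative Btg1, known as a quiescence gene, showed no such pattern, with 83.3, 84.2 and 72.9 TPM in GLUT3-deficient and 208, 62.9 and 51.2 TPM in wild-type Th17 libraries. Btg1 stood at 176, 113 and 139 TPM in GLUT3-deficient and at 239, 55.6 and 74.7 TPM in wild-type Th1 libraries. Wild-type replicate 1 was the highest library in both lineages, and without it Btg1 passed in Th1 cells (1.11 ± 0.21, adjusted p = 0.00398).

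Zfp36 encodes tristetraprolin, which binds AU-rich elements of cytokine mRNAs. It stood at 65.9, 87.9 and 73.9 TPM in GLUT3-deficient and at 25.0, 30.5 and 23.4 TPM in wild-type Th17 libraries. In Th1 cells, values were 56.4, 45.0 and 51.2 TPM in GLUT3-deficient and 26.9, 25.4 and 27.5 TPM in wild-type libraries. The groups did not overlap (1.49 ± 0.22, adjusted p = 0.0118 in Th17 cells; 0.90 ± 0.15, adjusted p = 0.00216 in Th1 cells). The Th17 call was lost without GLUT3-deficient replicate 1 or 3 (adjusted p = 0.0713 and 0.0505) and without wild-type replicate 2 or 3 (adjusted p = 0.0521 and 0.077). For the paralog Zfp36l1, the values were 22.9, 25.6 and 27.3 TPM in GLUT3-deficient and 12.3, 7.90 and 13.7 TPM in wild-type Th17 libraries, without overlap (1.13 ± 0.27, adjusted p = 0.0523; 1.11 ± 0.26, adjusted p = 0.0266 without GLUT3-deficient Th17 replicate 2). With any other single Th17 library left out, Zfp36l1 did not pass. In Th1 cells Zfp36l1 stood at 17.7, 23.7 and 15.3 TPM in GLUT3-deficient and at 23.6, 28.9 and 22.7 TPM in wild-type libraries, which overlapped (-0.41 ± 0.19, adjusted p = 0.144). Its difference between the effects, 1.53 ± 0.33, had the smallest p of all members (unadjusted 0.000532) and an adjusted p of 0.0681. Zfp36l2, the other paralog, was not called: GLUT3-deficient Th17 replicate 2 stood at 105 TPM, against 9.44 to 19.2 TPM in the other 11 libraries.

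**Figure D4:**
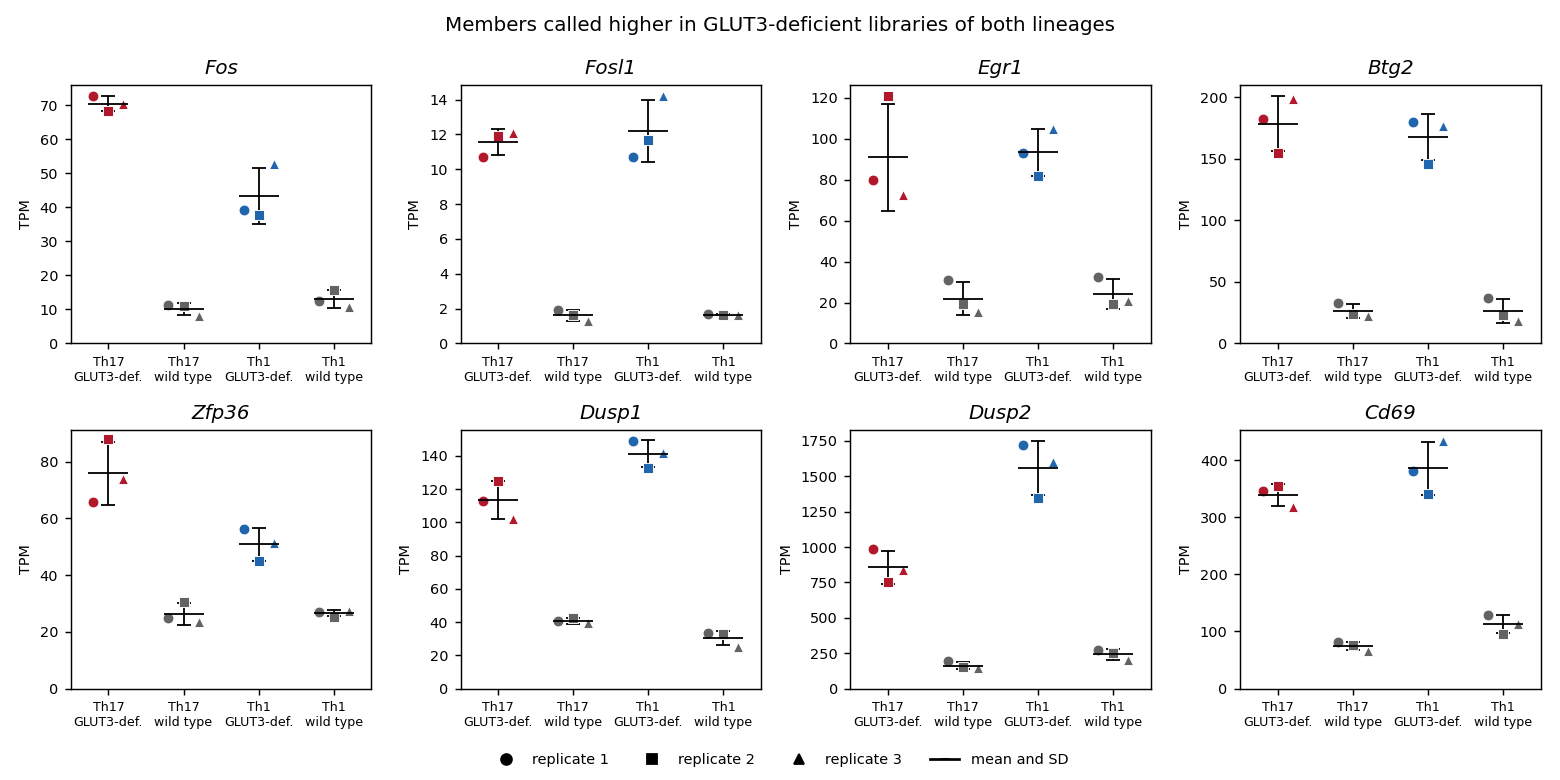
TPM of the 8 members called higher in GLUT3-deficient libraries of both lineages, in each of the 12 libraries by group, with the mean and SD of 3 libraries. For each gene, every GLUT3-deficient library lies above every wild-type library of the same lineage.

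The promoters of 5 of these 8 genes were held by the RefSeq table of build GRCm38.p6 and are printed because the genes moved together in both lineages. Each window runs 5′ to 3′ on the strand of the gene, from 250 bases before its start to 50 after it. Capitals mark matches on either strand to TGACG, the core of the cAMP response element (TGACGTCA where the element is whole), to the EGR motif GCGNGGGCG, to the CArG box bound by serum response factor, and to the NF-kB motif.
Fos, chr12:85473640-85473939, plus strand: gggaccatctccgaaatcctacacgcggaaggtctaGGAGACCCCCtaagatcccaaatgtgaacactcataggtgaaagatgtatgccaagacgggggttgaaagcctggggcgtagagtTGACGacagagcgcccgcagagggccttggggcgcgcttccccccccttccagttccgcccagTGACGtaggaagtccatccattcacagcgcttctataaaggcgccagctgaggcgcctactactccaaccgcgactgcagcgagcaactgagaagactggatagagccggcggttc
Dusp1, chr17:26508423-26508722, minus strand: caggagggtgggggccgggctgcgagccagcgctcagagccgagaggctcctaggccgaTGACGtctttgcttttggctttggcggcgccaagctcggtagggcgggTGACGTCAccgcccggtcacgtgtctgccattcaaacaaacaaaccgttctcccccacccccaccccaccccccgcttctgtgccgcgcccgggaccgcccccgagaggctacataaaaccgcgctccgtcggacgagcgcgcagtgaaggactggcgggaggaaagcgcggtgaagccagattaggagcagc
Dusp2, chr2:127335909-127336208, plus strand: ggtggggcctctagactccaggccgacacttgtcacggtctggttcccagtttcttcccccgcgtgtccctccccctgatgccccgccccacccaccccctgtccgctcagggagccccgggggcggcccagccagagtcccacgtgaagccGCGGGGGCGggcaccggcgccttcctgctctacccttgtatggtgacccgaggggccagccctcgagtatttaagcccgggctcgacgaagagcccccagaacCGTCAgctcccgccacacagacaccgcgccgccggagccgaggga
Btg2, chr1:134079106-134079405, minus strand: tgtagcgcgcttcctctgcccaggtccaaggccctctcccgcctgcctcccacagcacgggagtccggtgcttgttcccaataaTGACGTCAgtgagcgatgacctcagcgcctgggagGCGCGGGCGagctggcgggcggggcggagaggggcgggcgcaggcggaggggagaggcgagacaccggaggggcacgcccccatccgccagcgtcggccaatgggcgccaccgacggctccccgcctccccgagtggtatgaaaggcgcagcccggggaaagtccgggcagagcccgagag
Zfp36, chr7:28379179-28379478, minus strand: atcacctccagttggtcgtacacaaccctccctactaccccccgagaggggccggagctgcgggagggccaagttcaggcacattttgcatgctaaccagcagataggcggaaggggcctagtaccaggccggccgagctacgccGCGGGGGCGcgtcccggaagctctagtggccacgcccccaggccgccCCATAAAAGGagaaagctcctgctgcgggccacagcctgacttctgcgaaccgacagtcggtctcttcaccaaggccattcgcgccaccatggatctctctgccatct

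Fos held TGACG at 2 places and an NF-kB match. Btg2 and Dusp1 held the whole cAMP response element, Btg2 also an EGR match, Dusp2 TGACG and an EGR match, and Zfp36 a CArG box and an EGR match. TGACG includes the whole element, so these 2 motifs overlap. Windows were found for 30 of the 39 members; Egr2, Maff and Tnfaip3 had 5, 3 and 2 windows, and a gene counted if any window matched. Of these 30 members, 18 held TGACG (60%), compared with 23% of the 27025 genes with a window. The whole element was held by 4 members (13.3% and 2.03%), the EGR motif by 11 (36.7% and 6.27%), the NF-kB motif by 9 (30% and 9.55%), the CArG box by 3 (10% and 1.81%) and the AP-1 motif TGANTCA by 2 (6.67% and 8.97%). These are matches of letters, not binding sites, and the base composition of the windows was not matched. No window was found for Fosl1, Egr1, Egr3, Dusp4, Zfp36l2, Nfkbiz, Ier2, Rgs1 and Cd69.

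None of the 3 regulators of NF-kB was called in either lineage. Nfkbia, which encodes IkB-alpha, the inhibitor that NF-kB itself induces, stood at 839, 643 and 960 TPM in GLUT3-deficient and at 765, 642 and 724 TPM in wild-type Th17 libraries. Its Th1 values were 743, 733 and 672 TPM in GLUT3-deficient and 754, 550 and 398 TPM in wild-type libraries. The genotypes overlapped in both lineages (0.18 ± 0.21, adjusted p = 0.631 in Th17 cells; 0.38 ± 0.21, adjusted p = 0.209 in Th1 cells). Without wild-type Th1 replicate 1, the library with 754 TPM, Nfkbia passed in Th1 cells at 0.61 ± 0.15 (adjusted p = 0.0151), as did Tnfaip3 at 0.82 ± 0.15 (adjusted p = 0.00336) and Nfkbiz at 0.64 ± 0.18 (adjusted p = 0.0262). Tnfaip3, which encodes the deubiquitinase A20, averaged 27.2 TPM in GLUT3-deficient and 11.6 TPM in wild-type Th17 libraries, the deficient mean resting on 58.9 TPM in replicate 2. Nfkbiz, a nuclear IkB protein gene, stood at 0.936 to 4.10 TPM in all 12 libraries.

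Of the IER and stress genes, Ier2 and Ier3 were called in Th1 cells and none in Th17 cells. Ier3, an early response gene linked to cell survival, stood at 225, 198 and 211 TPM in GLUT3-deficient and at 80.9, 58.1 and 48.7 TPM in wild-type Th1 libraries (1.77 ± 0.19, adjusted p = 0.00037). In Th17 cells, values were 178, 111 and 174 TPM in GLUT3-deficient and 94.7, 51.8 and 46.4 TPM in wild-type libraries (1.29 ± 0.33, adjusted p = 0.0607). The genotypes lay apart in both lineages. In Th17 cells Ier3 passed without GLUT3-deficient replicate 2 (1.51 ± 0.30, adjusted p = 0.0153) and without wild-type replicate 1 (1.60 ± 0.27, adjusted p = 0.0483). It did not pass with any other single Th17 library left out (limma adjusted p = 0.146 to 0.222).

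Ier2 stood at 291, 283 and 314 TPM in GLUT3-deficient and at 171, 180 and 135 TPM in wild-type Th1 libraries (0.87 ± 0.15, adjusted p = 0.00281). Its Th17 values were 395, 351 and 396 TPM in GLUT3-deficient and 281, 341 and 310 TPM in wild-type libraries (0.29 ± 0.17, adjusted p = 0.327). The genotypes did not overlap in either lineage, and in Th17 cells they lay close together. Ier5, Ppp1r15a (GADD34, a phosphatase subunit of the stress response) and Gadd45b (an activator of p38 in T cells) were not called. Their log2 fold changes were 0.20 ± 0.34, 0.33 ± 0.27 and 0.13 ± 0.24 in Th17 cells and 0.25 ± 0.25, 0.63 ± 0.24 and 0.67 ± 0.24 in Th1 cells. Without wild-type Th1 replicate 1, the highest of its group for all 3, they passed in Th1 cells at 0.55 ± 0.14, 0.87 ± 0.19 and 0.96 ± 0.14 (adjusted p = 0.0157, 0.00775 and 0.00151).

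Cd69, the early activation antigen that holds T cells in tissue by blocking the sphingosine phosphate receptor, stood at 345, 355 and 317 TPM in GLUT3-deficient and at 81.8, 75.6 and 66.2 TPM in wild-type Th17 libraries. In Th1 cells, values were 381, 341 and 434 TPM in GLUT3-deficient and 128, 96.1 and 113 TPM in wild-type libraries. The lowest deficient library was well above the highest wild-type library in both lineages (2.17 ± 0.18, adjusted p = 0.00154 in Th17 cells; 1.77 ± 0.16, adjusted p = 0.000163 in Th1 cells). Cd69 lies on chromosome 6 (129267324 to 129275375), 6.46 Mb from Slc2a3, and whether its level follows the edited chromosome was not tested. RGS proteins switch off signals of G protein-coupled receptors, and neither of the 2 measured was called higher. Rgs2 stood at 29.7, 26.5 and 31.5 TPM in GLUT3-deficient and at 101, 48.4 and 64.0 TPM in wild-type Th1 libraries, the only member called lower (-1.19 ± 0.25, adjusted p = 0.0068). In Th17 cells Rgs2 stood at 35.3, 20.2 and 33.1 TPM in GLUT3-deficient and at 52.3, 28.4 and 27.2 TPM in wild-type libraries, which overlapped (-0.25 ± 0.34, adjusted p = 0.688). Rgs1 averaged 485 ± 53.7 TPM in GLUT3-deficient and 293 ± 18.3 TPM in wild-type Th17 libraries (SD, n = 3 each), apart from each other but not called (0.72 ± 0.17, limma adjusted p = 0.0523; 0.81 ± 0.16, adjusted p = 0.0157 without GLUT3-deficient Th17 replicate 2). In Th1 cells Rgs1 averaged 768 ± 97.7 TPM in GLUT3-deficient and 526 ± 178 TPM in wild-type libraries (SD, n = 3 each; limma adjusted p = 0.0778). Without wild-type Th1 replicate 3, at 730 TPM, it passed at 0.85 ± 0.15 (adjusted p = 0.00654). With any other single library of the lineage left out, Rgs1 did not pass in either lineage.

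Several of these counts depend on single libraries, and so do the counts of all genes called. The Th17 count of 8, where 1009 of all genes passed, was 5 without GLUT3-deficient replicate 1, wild-type replicate 2 or wild-type replicate 3. In these fits 109, 162 and 132 of all genes passed. Fos, Fosl1, Dusp2, Btg2 and Cd69 were called under each library left out. The Th17 count was 12 without GLUT3-deficient replicate 2, where 2158 of all genes passed. The Th1 count of 20, where 4220 of all genes passed, was 18 to 28 with 1 library left out, the highest without wild-type replicate 1. Btg1, Klf6, Nfkbia, Nfkbiz, Tnfaip3, Ier5, Ppp1r15a and Gadd45b passed in that fit and with no other single library left out. Of all genes, 2594 to 4587 passed in these Th1 fits.

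Whether the genotype effect differs between Th17 and Th1 cells was tested as the difference of both effects over 12 libraries. None of the 37 tested members passed with limma, where 0.638% of 14579 genes did, and voom on the recovered reads called 0 members as well. At an unadjusted p below 0.05 stood 9 members: Fos, Jun, Jund, Zfp36 and Zfp36l1 with the more positive effect in Th17 cells, and Nr4a2, Nr4a3, Dusp1 and Ier2 with the more positive effect in Th1 cells. Of all genes, 6.38% had an unadjusted p below 0.05. The members called in Th1 but not in Th17 cells are therefore not shown to differ between the lineages. With median-of-ratios scaling, Nr4a2 passed (-1.59 ± 0.30, adjusted p = 0.0364).

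Lineages were also compared within each genotype. On this scale the median of all genes was 0.138 between wild-type and 0.125 between GLUT3-deficient libraries (Th17 over Th1), and median-of-ratios scaling brought these to -0.003 and -0.036, so lineage differences are given with both. In wild-type cells 2 of 37 members passed (3.63% of all genes). Ier2 was higher in wild-type Th17 than in wild-type Th1 libraries, at 311 ± 30.0 and 162 ± 23.7 TPM (SD, n = 3 each; log2 difference 0.94 ± 0.15, limma adjusted p = 0.00323). After median-of-ratios scaling it no longer passed (0.77 ± 0.20, adjusted p = 0.061). Zfp36l1 was lower in wild-type Th17 than in wild-type Th1 libraries, at 11.3 ± 3.00 and 25.1 ± 3.33 TPM (SD, n = 3 each; -1.11 ± 0.23, limma adjusted p = 0.0174; -1.28, adjusted p = 0.0162 after scaling). That call was lost without wild-type Th17 replicate 2 or wild-type Th1 replicate 2 (adjusted p = 0.0862 and 0.0776). The scaled limma fit newly called Cd69 (-0.76 ± 0.18, adjusted p = 0.0332) and Nr4a2 (-1.02 ± 0.21, adjusted p = 0.0175), both lower in Th17 libraries. Nr4a2 was also called by voom on the recovered reads (-1.14 ± 0.27, adjusted p = 0.0314). With the replicate number as a block, 4 members passed, adding Rgs1 (-0.79 ± 0.18, adjusted p = 0.0439) and Rgs2 (-0.96 ± 0.22, adjusted p = 0.0421). Of all genes, 17% had an unadjusted limma p below 0.05 in that fit, against 14.6% without the block. That block was shared by all 12 libraries, among them groups whose numbers do not pair. In the fit without a block, 7 members passed when GLUT3-deficient Th17 replicate 2 was left out. That library enters the wild-type comparison only through the shared spread. Of all genes, 529 passed with every library and 309 to 1582 with 1 left out.

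Between GLUT3-deficient libraries, 5 of 37 members passed (5.91% of all genes). Nr4a2 was lower in Th17 than in Th1 libraries, at 2.78 ± 0.638 and 19.9 ± 5.71 TPM (SD, n = 3 each; -2.45 ± 0.25, limma adjusted p = 9.12e-05; -2.61 after scaling), and it was called under every alternative run. Dusp2 was lower too, at 858 ± 117 TPM in Th17 and 1556 ± 191 TPM in Th1 libraries (SD, n = 3 each; -0.86 ± 0.18, limma adjusted p = 0.0128; -1.06 after scaling), but not without GLUT3-deficient Th1 replicate 1 or 3 (adjusted p = 0.0806 and 0.0576). Nr4a3 was at -0.85 ± 0.22 (adjusted p = 0.0453; -0.98 after scaling), a call kept in 3 of 12 fits with 1 library left out. Jun and Jund were higher in Th17 cells, by 1.07 ± 0.27 (adjusted p = 0.0371) and 1.18 ± 0.29 (adjusted p = 0.0306), and by 0.87 and 0.98 after scaling. Jun kept this call in 9 of 18 alternatives. It was lost after scaling (adjusted p = 0.0592), without the filter on low values (adjusted p = 0.0679), without GLUT3-deficient Th17 replicate 1 or 2, without each GLUT3-deficient Th1 library, and without replicate 2 of either wild-type group (adjusted p = 0.0511 to 0.162). Jund lost its call without the filter (adjusted p = 0.0589) and without each GLUT3-deficient Th1 library (adjusted p = 0.0599 to 0.146). Without GLUT3-deficient Th17 replicate 2, Dusp5 (-1.59, adjusted p = 0.00374) and Zfp36l2 (0.70, adjusted p = 0.022) passed. Both passed with no other single library left out. After median-of-ratios scaling, Atf3 passed as lower in Th17 libraries (-1.37 ± 0.35, limma adjusted p = 0.0362). Voom on the recovered reads called Atf3 as well (-1.32 ± 0.33, adjusted p = 0.0248). The count of 5 was 3 without GLUT3-deficient Th17 replicate 1 or wild-type Th17 replicate 2, 2 without GLUT3-deficient Th1 replicate 2, and 1 without GLUT3-deficient Th1 replicate 1 or 3. Of all genes, 861 passed with every library and 449 to 1219 with 1 left out.

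Genes around the members in the same pathways were taken from listed symbols, and their counts are read beside the shares of all genes tested, 7.3% in Th17 cells (4.6% higher and 2.7% lower) and 31.3% in Th1 cells (17.6% higher and 13.7% lower), and beside the medians of all genes, 0.04 and 0.03. Of 48 tested carriers of the receptor, MAP kinase, calcium and NF-kB signals upstream, 3 were higher and 1 lower in GLUT3-deficient Th17 cells, with a median log2 fold change of 0.26, a share near the 7.3% of all genes. The costimulatory receptor Cd28 stood at 609 ± 46.5 TPM in GLUT3-deficient and 286 ± 37.9 TPM in wild-type Th17 libraries (SD, n = 3 each; 1.09 ± 0.18, limma adjusted p = 0.017). The adaptor Lat was lower (-1.09 ± 0.20, adjusted p = 0.0224). Of 47 tested carriers, 11 were higher and 4 lower in Th1 cells, with a median of 0.22, again a share near that of all genes (31.3%). The adaptor Lcp2 (SLP-76) stood at 15.6 ± 1.88 TPM in GLUT3-deficient and 174 ± 5.85 TPM in wild-type Th1 libraries (SD, n = 3 each; -3.40 ± 0.14, limma adjusted p = 1.47e-05). The calcium channel Orai1 (1.48 ± 0.16, adjusted p = 0.000344) and the NF-kB subunit Nfkb2 (1.37 ± 0.18, adjusted p = 0.000762) were higher.

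Of 25 and 26 tested nuclear factors that bind serum response, cAMP response and AP-1 elements, 1 was higher and 1 lower in Th17 cells, and 7 were higher and none lower in Th1 cells (medians 0.46 and 0.18). Counted in either direction, these shares lay near the 7.3% of all genes in Th17 cells and below the 31.3% in Th1 cells. The called factors of Th1 cells were all higher, where 17.6% of all genes were higher and 13.7% lower. The AP-1 factor Batf3 was higher in GLUT3-deficient Th17 cells (1.97 ± 0.33, adjusted p = 0.0175), and the stress factor Atf4 lower (-0.80 ± 0.19, adjusted p = 0.0472). In Th1 cells Batf2 (1.31 ± 0.16, adjusted p = 0.000659), Maf (1.39 ± 0.22, adjusted p = 0.00192) and the EGR corepressor Nab1 (0.60 ± 0.17, adjusted p = 0.0249) were higher. Of other activation genes of T cells, 12 of 56 were higher and none lower in Th17 cells and 25 of 53 were higher and 3 lower in Th1 cells (medians 0.72 and 0.61), where 4.6% of all genes were higher in Th17 cells and 17.6% higher and 13.7% lower in Th1 cells. The interferon gamma gene Ifng stood at 82.3 ± 33.0 TPM in GLUT3-deficient and 3.47 ± 1.35 TPM in wild-type Th17 libraries, and at 7977 ± 1078 TPM in GLUT3-deficient and 778 ± 317 TPM in wild-type Th1 libraries (SD, n = 3 each). Among the same activation genes, Tnfsf8, the ligand of CD30, and the cytokine signal inhibitor Socs1 were higher in Th17 cells (2.51 ± 0.24 and 1.43 ± 0.21, adjusted p = 0.00267 and 0.0129). The cytokine gene Lta and the growth factor gene Hbegf were higher in Th1 cells (2.25 ± 0.12 and 2.86 ± 0.21, adjusted p = 2.23e-05 and 7.59e-05).

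Of 17 tested genes listed as targets of ZFP36 proteins, 6 were higher and none lower in Th17 cells, and 10 were higher and 2 lower in Th1 cells (medians 0.59 and 1.28; of all genes, 4.6% were higher in Th17 cells, and 17.6% were higher and 13.7% lower in Th1 cells). These are genes whose mRNAs Zfp36 products are known to destabilize. The lists share genes, so their counts are not separate results. Ifng and Pim1 are also listed as activation genes, and Ccl3 and Ccl4 also as NF-kB targets. Lta is listed both as an activation gene and as an NF-kB target, and Nfkb1 both as a carrier and as an NF-kB target. The chemokine gene Ccl4 stood at 275 ± 7.40 TPM in GLUT3-deficient and 34.1 ± 3.56 TPM in wild-type Th17 libraries (SD, n = 3 each; limma adjusted p = 0.000711), and Ccl3 was higher too (3.01 ± 0.37, adjusted p = 0.00657). In Th1 cells the cytokine genes Il21 (2.34 ± 0.14, adjusted p = 3.23e-05) and Il10 (2.86 ± 0.18, adjusted p = 3.99e-05) and Ccl3 (4.48 ± 0.29, adjusted p = 4.36e-05) were higher. Of 25 tested NF-kB targets, 5 were higher and none lower in Th17 cells, with the chemokine gene Ccl5 at 1.96 ± 0.31 (adjusted p = 0.015), and 16 were higher and 1 lower in Th1 cells (medians 0.61 and 0.75), compared with 7.3% of all genes called in Th17 and 31.3% in Th1 cells. The lower gene was Tnip3, a partner of A20, at 2.46 ± 0.815 TPM in GLUT3-deficient and 53.7 ± 15.9 TPM in wild-type Th1 libraries (SD, n = 3 each; -3.97 ± 0.25, limma adjusted p = 3.93e-05).

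Some immediate early genes also respond to the handling of cells, and 20 genes of heat shock and other stress were read beside them. This list holds genes that are not specific to handling, among them Trib3, Sesn2 and Hspa5. Whether handling bears on the levels of the members was not tested. Of 19 tested, none was higher and 1 lower in GLUT3-deficient Th17 cells (Trib3, a target of ATF4, -2.00 ± 0.43, adjusted p = 0.0386), and 4 were higher and 3 lower in Th1 cells, shares near those of all genes (7.3% and 31.3%). The medians were -0.25 and -0.33. In Th1 cells the chaperone Hspa5 and the stress gene Sesn2 were higher (0.92 ± 0.15 and 1.09 ± 0.18, adjusted p = 0.00212 and 0.00228), and the chaperone Hspa8 was lower (-0.64 ± 0.15, adjusted p = 0.0107).

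Some markers of other cell types also differed between the genotypes. Of 5 markers of gamma delta T cells, 4 were tested and all 4 were higher in the GLUT3-deficient libraries of both lineages; Sox13 stayed below 1 TPM in every group. Their sum was 165 to 255 TPM in GLUT3-deficient and 17.4 to 20.2 TPM in wild-type Th17 libraries, and 171 to 268 TPM in GLUT3-deficient and 13.9 to 33.4 TPM in wild-type Th1 libraries. Of 8 myeloid markers, 3 of 5 tested were higher in Th17 and 2 of 3 in Th1 cells, with sums of 44.2 to 64.9 TPM in GLUT3-deficient and 12.4 to 14.6 TPM in wild-type Th17 libraries, and of 25.2 to 46.1 TPM in GLUT3-deficient and 10.9 to 14.0 TPM in wild-type Th1 libraries. The called markers were Tyrobp, Fcer1g and Lyz2 in Th17 cells, with log2 fold changes of 2.02 ± 0.24, 2.08 ± 0.29 and 2.08 ± 0.42. In Th1 cells they were Tyrobp and Fcer1g, at 1.44 ± 0.23 and 1.74 ± 0.33. Cd14, not called, stood at 2.94, 2.45 and 1.45 TPM in GLUT3-deficient and at 0.845, 0.645 and 0.379 TPM in wild-type Th17 libraries. The macrophage markers Csf1r, Itgam and Adgre1 stayed below 1 TPM in all 4 groups.

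Of 8 markers of CD8 and NK cells, 2 of 6 tested (Klrk1 and Klrc1) were higher in Th17 cells. In Th1 cells 4 (Klrk1, Klrc1, Klrd1 and Eomes) were higher and 2 (Cd8a and Cd8b1) lower. The sums of the 8 markers were 90.7 to 108 TPM in GLUT3-deficient and 49.1 to 64.2 TPM in wild-type Th17 libraries, and 195 to 283 TPM in GLUT3-deficient and 62.1 to 78.5 TPM in wild-type Th1 libraries. Of 7 B cell markers, 1 of 5 tested (Igkc) was higher in Th17 and none in Th1 cells, with sums of 132 to 198 TPM in GLUT3-deficient and 114 to 153 TPM in wild-type Th17 libraries, and of 68.5 to 475 TPM in GLUT3-deficient and 88.1 to 112 TPM in wild-type Th1 libraries. Of 8 red cell and platelet markers, Pf4 and Ppbp were higher in both lineages, with sums of 43.3 to 113 TPM in GLUT3-deficient and 7.82 to 15.7 TPM in wild-type Th17 libraries, and of 60.3 to 196 TPM in GLUT3-deficient and 11.9 to 23.7 TPM in wild-type Th1 libraries. The part of such cells in the levels of the members was not tested. Most, not all, of the fixed lineage markers read here separated the lineages as labelled. The Th17 cytokine gene Il17f stood at 356, 310 and 545 TPM in GLUT3-deficient and at 568, 958 and 1076 TPM in wild-type Th17 libraries and at most at 4.52 TPM in Th1 libraries. Il17a stood at 36.8 to 74.4 TPM in GLUT3-deficient and at 18.3 to 22 TPM in wild-type Th17 libraries and at most at 15.4 TPM in Th1 libraries. The chemokine receptor gene Ccr6 stood at 17.8 to 24.7 TPM in Th17 libraries and at most at 2.52 TPM in Th1 libraries. The receptor gene Il23r did not separate the wild-type lineages: it stood at 8.51 to 13.3 TPM in GLUT3-deficient and at 11.8 to 20.0 TPM in wild-type Th17 libraries, and at 2.94 to 3.72 TPM in GLUT3-deficient and at 14.3 to 16.5 TPM in wild-type Th1 libraries. The 4 Th1 markers (Ifng, Tbx21, Cxcr3 and Il12rb2) summed to 7205 to 9113 TPM in GLUT3-deficient and 781 to 1350 TPM in wild-type Th1 libraries and to at most 380 TPM in Th17 libraries, a sum made up mostly of Ifng in Th1 libraries. Il12rb2 alone stood at 169 TPM in GLUT3-deficient Th17 replicate 2 and at 21.4 to 52.9 TPM in the other Th17 libraries, against 165 to 188 TPM in GLUT3-deficient and 94.0 to 104 TPM in wild-type Th1 libraries.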

How the data were processed

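In the submitters' processing notes stand the build GRCm38.p6 and the tools DESeq2 1.24.0, Subread with featureCounts 1.6.4, STAR 2.7.2b, cutadapt and bcl2fastq 2.20.0.422, without roles. Per the labels' protocols, cDNA was amplified from total RNA with the SMART-Seq v4 kit and tagged with Nextera XT, which does not mark the strand, so reads of overlapping or antisense partners are not separated. The authors deposited TPM per gene, 1 table per lineage, as their names and their equal totals show, with a comma as decimal mark and no counts; analyses set the tables side by side, since TPM has the same total in every library. TPM times exon length gave whole reads within 0.02, which gives the depth and its precision; PCR copies are not independent molecules.

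With limma 3.58.1 (R 4.3.3, trend, two-sided), log2(TPM + 1) was tested for genes that reached 1 TPM in 3 or more libraries of the fit, p-values being adjusted by Benjamini-Hochberg over all genes tested, with a threshold of 0.05. Genotypes were compared on the 6 libraries of a lineage; the difference of effects and the lineages were tested in 1 model of 4 group means over 12 libraries. Groups and replicate numbers came from the titles. Same-numbered Th17 libraries of both genotypes deviated together (r = 0.14, 0.41 and 0.23 across genes, which are not independent), as did wild-type Th17 and Th1 libraries (0.72, 0.26 and 0.53). Libraries of different numbers gave r of -0.41 to 0.10 and of -0.61 to 0.28, so in wild-type cells 0.26 for number 2 was not the higher value. In Th17 cells 0.14 for number 1 was little above the highest r of different numbers, 0.10. The numbers were taken as pairs in these 2 comparisons, on these correlations alone. The main fits used no block, so the pairs enter only in the alternative with a block. Values per library are given for members called in a genotype comparison and for named prototypes, other members by range and count; list genes named are the 3 with the smallest adjusted p. Some genes of these lists are not reported here. Members and lists were chosen with earlier results of these data known. Alternatives were pseudocounts of 0.1 and 5, no filter, median-of-ratios scaling, voom on recovered reads, a replicate block, all 12 libraries in 1 fit and each library left out; the steps were tested on simulated data. Promoter sequences are RefSeq's.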

Additional observations from a re-analysis of the deposited data

How the results depend on the processing

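The 37 members tested in at least 1 comparison and Slc2a3 gave 2970 values under alternatives: 2864 kept their side of the threshold, 49 newly passed, 57 no longer passed, and no called value changed sign. The count of members called in GLUT3-deficient against wild-type cells moved in Th17 cells to 13 with all 12 libraries in 1 fit, from 8, and ranged from 5 to 12 with 1 library left out. In Th1 cells it ranged from 18 to 28 around 20 with 1 library left out, and from 17 to 22 under the other alternatives. For the difference of the effects the count was 0, and 1 (Nr4a2) with median-of-ratios scaling, and 0 to 1 with 1 library left out. Between wild-type Th17 and Th1 cells it was 2, and 4 with the replicate block, and 1 to 7 with 1 library left out. Between GLUT3-deficient Th17 and Th1 cells it was 5, and 2 without the filter, and 1 to 6 with 1 library left out. Counts of all genes called moved too with 1 library left out. They were 109 to 2158 in Th17 cells (from 1009) and 2594 to 4587 in Th1 cells (from 4220). For the difference of the effects they were 21 to 171 (from 93). Between wild-type lineages they were 309 to 1582 (from 529), and between GLUT3-deficient lineages 449 to 1219 (from 861). With all 12 libraries in 1 fit, 34.8% of all genes had an unadjusted p below 0.05 in Th17 cells, against 25% before. The replicate block added Jun, Dusp6 and Ier3 in Th17 cells and Rgs1 and Rgs2 between wild-type lineages. Between lineages the block was fitted over all 12 libraries. In Th1 cells and between the GLUT3-deficient lineages the numbers do not pair the libraries (r = 0.16, 0.21 and -0.07, and 0.22, -0.04 and -0.19). The block called 22 and 5 members there, where 45% and 22.8% of all genes had an unadjusted limma p below 0.05. Without the block these shares were 42.9% and 20.6%. The Th1 calls of Dusp4 and Nr4a1 were lost without the filter (adjusted p = 0.053 and 0.108), and those of Dusp4, Dusp5 and Nr4a1 with all 12 libraries in 1 fit (adjusted p = 0.0584, 0.182 and 0.261). In Th17 cells Slc2a3, the check of the genotype, kept its direction in all 13 alternatives and its call in 6 of them. The cause of these changes was not tested. Where 1 library was left out, fewer samples entered the fit. Depth bears most on Fosb, which held 0 to 16 reads in any library.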
